A study of Mus musculus with 6 samples.

Results

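The liver is the main site at which the body breaks down most amino acids, and 54 genes of this system were examined in mouse hepatocytes that received the transcription factor Sox4. The genes were chosen by symbol from a list of enzymes of amino acid breakdown and one-carbon metabolism. No measured value was used in the rule, but the genes were chosen with earlier results of these data known. Each of the 54 was found among the 53599 gene symbols of the count table. All 54 also passed the expression filter, which left 12691 genes for testing. RNA-seq was performed on hepatocytes isolated 4 days after mice were injected with an adeno-associated virus of serotype 8 (AAV8), with 3 libraries from mice given AAV8-TBG-HA-Sox4-P2A-Cre (Sox4) and 3 from mice given AAV8-TBG-Cre (empty vector, EV). Both vectors used TBG, a promoter active in hepatocytes, and both delivered Cre recombinase. The vectors were built on different plasmid backbones: the empty vector described in the methods also carries a U6 cassette with an sgRNA scaffold and another polyadenylation signal, so effects of Sox4 and of the backbone cannot be told apart. The labels give the genotype of EV mice as WT and that of Sox4 mice as Sox4. The animals were male and 4 to 8 weeks old at injection. They carried a Cre-inducible Cas9-EGFP allele at Rosa26 on the C57BL/6J background, in both groups as far as the sources tell. After liberase digestion of the liver, hepatocytes were enriched with Percoll. The paper states the dose of the Sox4 vector for its RNA-seq mice. The vector dose of the EV mice of these libraries was not given in the sources used here, so whether the doses were equal is not known.

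Amino acid catabolism removes the amino group of an amino acid, usually by transamination or deamination, and feeds the carbon skeleton into glucose, ketone or energy metabolism. Many of these enzymes are made at high level in hepatocytes and at low level elsewhere, and several are enriched in the hepatocytes around the portal vein (periportal) or around the central vein (pericentral). Methionine breakdown is tied to the methyl cycle, in which S-adenosylmethionine donates methyl groups and homocysteine is either remethylated or passed on to cysteine and taurine.

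Total counts ranged from 15090629 to 16964860 per library, and a count of 3, used as the floor of detection, was at most 0.231 CPM (counts scaled to a library of 1e+06, with library sizes corrected by the TMM factors of edgeR). The lowest count of any of the 54 genes in a library was 90 (Afmid). The delivered gene followed the labels, with Sox4 counts of 2, 0 and 3 in the EV libraries and of 21697, 15097 and 11816 in the Sox4 libraries. Hepatocyte markers were abundant in both groups. The 7 found in the table, of which 6 fell, together reached 103000 to 128000 CPM (EV) and 74500 to 84300 CPM (Sox4). Markers of other liver cells were at much lower summed levels and for most lists moved with the groups. The 9 cholangiocyte markers reached 21.9 to 27.0 CPM (EV) and 64.1 to 69.9 CPM (Sox4) in sum, with 2 of 3 tested higher, and 3 of the 9, Krt7, Krt19 and Tspan8, had no count in EV. In the paper, Sox4 induced EPCAM protein in hepatocyte-derived cells, so this list does not mark cholangiocytes alone. Summed stellate markers spanned 10.7 to 50.5 CPM (EV) and 97.6 to 152 CPM (Sox4), with 4 of 5 tested higher. The Kupffer sum was 13.4 to 28.8 CPM (EV) and 29.1 to 67.9 CPM (Sox4), with 4 of 9 tested higher. The endothelial sums, 25.7 to 50 CPM (EV) and 24.2 to 58.5 CPM (Sox4), overlapped, with 2 of 10 higher and 1 lower. The part of these cells in the results below was not tested. In bulk libraries, fewer cells of a type and less RNA per cell cannot be told apart.

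The mRNAs of breakdown enzymes were lower in Sox4 across nearly all pathways. Protein and enzyme activity were not measured in these libraries. Of the 54 genes, 47 fell, 3 rose (Acmsd, Csad and Gpt2) and 4 did not pass the test (Sdsl, Amdhd1, Pipox and Oat) by the edgeR quasi-likelihood test with Benjamini-Hochberg adjustment over all genes tested, which is the source of every adjusted p below. Among all genes tested, 26.0% were lower and 29.0% were higher. At least 2-fold lower were 34 of the 54, against 11.9% of all genes tested. The median log2 fold change (Sox4 over EV) was -1.25 for the 54 genes and 0.041 for all genes tested. The 3 EV and 3 Sox4 values did not overlap for 48 of the 54, against 63.0% of all genes tested. Where library sizes were used without TMM, the median of all genes tested moved to 0.51, that of the 54 genes to -0.78, and 36 were lower and 5 higher, so that the 50 genes below 0 became 46; on that scale 12.8% of all genes tested were lower and 51.0% higher.

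**Figure D1:**
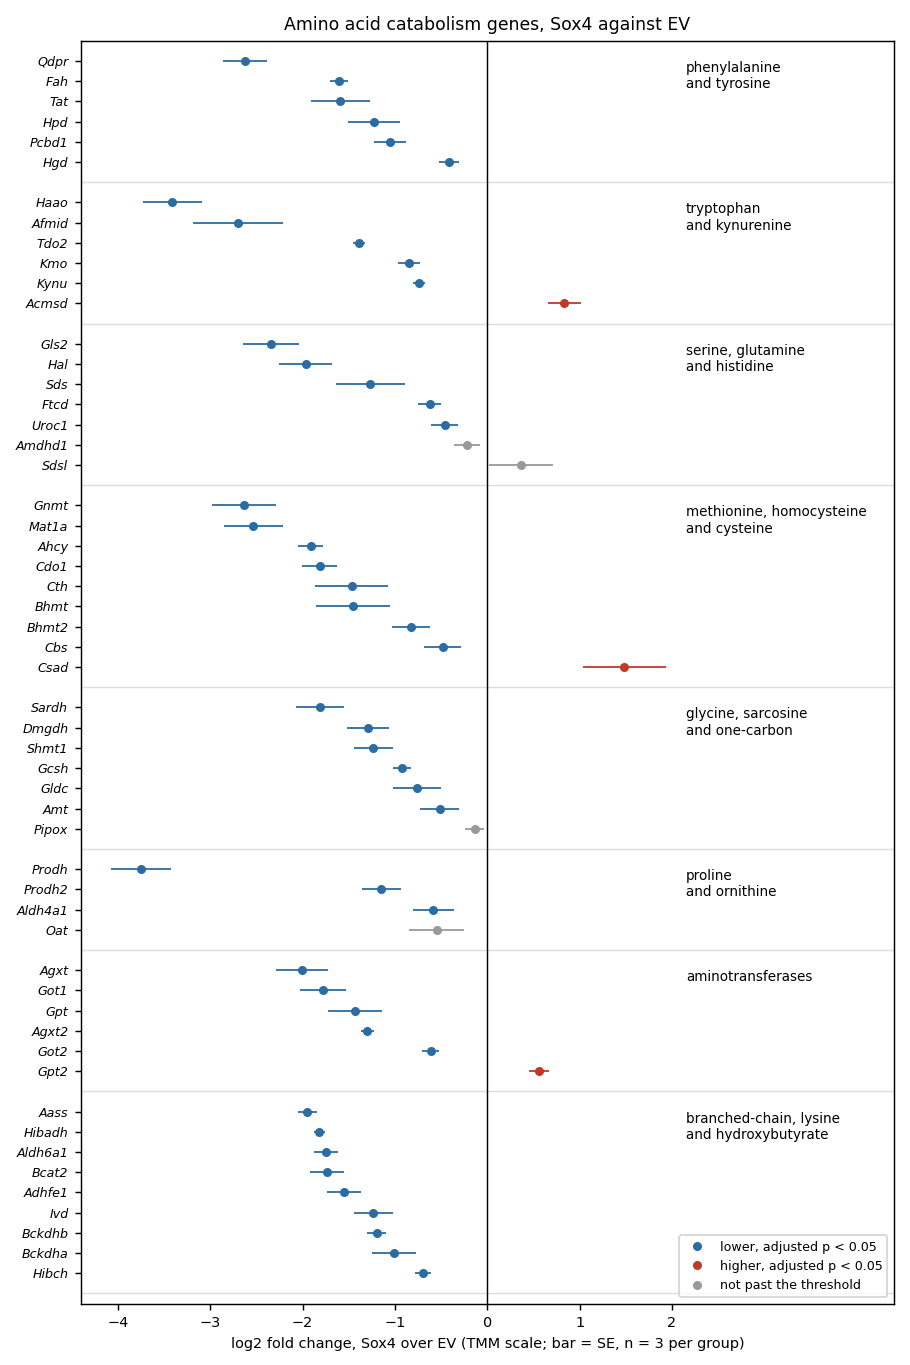
Log2 fold change, Sox4 over EV, of the 54 amino acid catabolism genes by pathway (points; bars are the SE, n = 3 libraries per group; color gives the edgeR call). Of the 54 points 47 are lower, 3 are higher (Acmsd, Csad and Gpt2), and 4 are in grey as not past the threshold.

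These mRNAs are mostly abundant, so tested genes of high level are given beside them. Of 1491 tested genes with a mean of 100 CPM or more over all 6 libraries, 52.0% were lower and 17.6% were higher, with a median log2 fold change of -0.41. Of the 45 amino acid catabolism genes at that level, 40 were lower and 2 higher, with a median of -1.30. Together the 54 genes held 3.50%, 3.17% and 2.68% of all counts in the EV libraries and 1.89%, 1.43% and 1.79% in the Sox4 libraries. Every Sox4 share was below every EV share (3.12 ± 0.42% against 1.70 ± 0.24%, mean ± SD, n = 3; exact two-sided permutation test p = 0.1, the smallest that 3 against 3 libraries can give, so that 0.05 could not be reached).

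**Figure D2:**
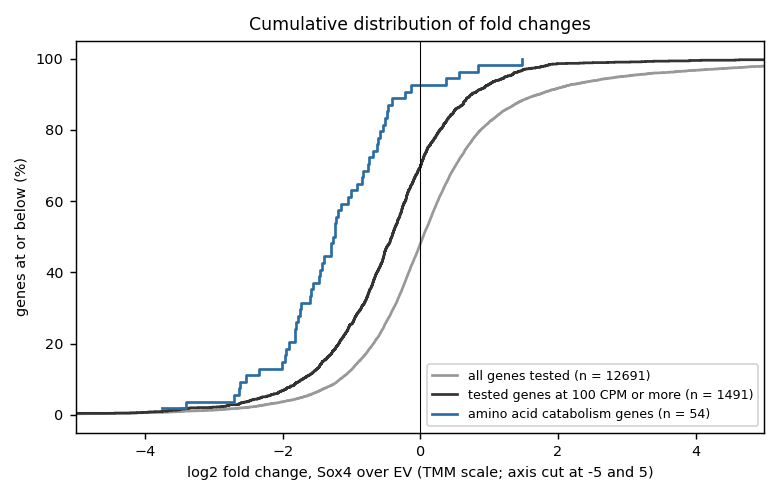
Cumulative share of genes (%) at or below each log2 fold change, Sox4 over EV, for the 54 amino acid catabolism genes, the 1491 tested genes at 100 CPM or more and all 12691 genes tested. The curve of the 54 genes lies to the left of both others over most of its range (medians -1.25, -0.41 and 0.041) and crosses 0 with 50 of its genes below.

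Within each group the libraries differed in the same order for many of the genes. EV 3 had the lowest EV level for 42 of the 54 genes, against 36.3% of all genes tested, and EV 1 the highest for 36 of the 54, against 36.7%. Sox4 2 was the lowest Sox4 library for 37 of the 54, against 29.2% of all genes tested, and Sox4 1 the highest for 35 of the 54, against 40.1%. Without EV 3, 48 genes were lower and 3 higher, and without Sox4 2, 42 were lower and 3 higher. No gene varied by more than 3-fold within a group; the widest ratio of highest to lowest library was 2.79 in EV (Csad) and 2.91 in Sox4 (Afmid), with medians of 1.29 and 1.46.

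On a scale that allows genes to be compared (mean CPM per kb of exon), the highest EV levels belonged to Gnmt at 1522, Mat1a at 1226 and Cdo1 at 1017 CPM per kb, and the lowest to Bcat2 at 6.72. In Sox4, Hpd was the highest at 357 CPM per kb, and Gnmt and Mat1a were at 246 and 211. Exon lengths came from a GRCm38 annotation, so these levels are approximate. The tyrosine genes Hpd and Tat followed in EV at 837 and 758 CPM per kb, next to Bhmt at 755.

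Tyrosine is degraded to fumarate and acetoacetate by Tat, Hpd, Hgd and Fah acting in turn with an isomerase, while Qdpr and Pcbd1 recycle tetrahydrobiopterin, the cofactor of the aromatic amino acid hydroxylases. All 6 of these genes fell (median -1.41). Qdpr was at 395, 348 and 314 CPM in the EV libraries and 74.9, 51.7 and 44.8 CPM in the Sox4 libraries. Its Sox4 levels were all far below its EV levels, a 6.17-fold lower mean (log2 fold change ± SE, written as log2 change here and below, -2.62 ± 0.24; adjusted p = 7.4e-06). Fah, the last enzyme of the pathway, was at 774, 773 and 715 CPM in EV and 278, 226 and 237 CPM in Sox4. The 3 values of each group lay close together and the groups were well apart (log2 change -1.61 ± 0.10, adjusted p = 1.16e-05). Tat, the aminotransferase that opens the pathway, fell from 1824 ± 503 to 605 ± 153 CPM (mean ± SD, n = 3, here and below), a log2 change of -1.59 ± 0.32 (adjusted p = 0.000512). Hpd fell from 1780.4 ± 327 to 760.3 ± 196 CPM (log2 change -1.23 ± 0.28, adjusted p = 0.0012) and Pcbd1 from 203 ± 22.02 to 98.1 ± 17.9 CPM (log2 change -1.05 ± 0.17, adjusted p = 0.000306). Hgd, which opens the ring of homogentisate between Hpd and Fah, changed least of the 6, from 814 ± 63.8 to 610.2 ± 64.6 CPM (log2 change -0.42 ± 0.11, adjusted p = 0.0299), and its direction turned to 0.053 with library size alone. Some exon sequence of Qdpr (18.57%) overlaps the antisense gene Gm42413, which had no count in any library.

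Tryptophan is oxidized by Tdo2, and Afmid, Kmo, Kynu and Haao carry the product through kynurenine to an unstable intermediate that closes by itself to quinolinate, a precursor of NAD. Acmsd removes that intermediate before it closes. The genes up to Haao fell (5 of 5), and Acmsd rose (median of the 6 genes -1.12). Haao was at 552, 468 and 398 CPM in the EV libraries and 63.5, 37.5 and 32.4 CPM in the Sox4 libraries, so the Sox4 mean was 10.6-fold lower (log2 change -3.41 ± 0.32, adjusted p = 1.35e-05), with wide separation of the groups. Acmsd was at 50.5, 40.1 and 32.97 CPM in EV and at 69.5, 75.96 and 74.5 CPM in Sox4. The lowest Sox4 value lay above the highest EV value, and the mean was 1.78 times that of EV (log2 change 0.83 ± 0.18, adjusted p = 0.00116). The mRNAs of the 2 enzymes that make and remove the intermediate thus moved in opposite directions in the same libraries. The Haao to Acmsd count ratio was 10.9 to 12.1 in EV and 0.435 to 0.913 in Sox4, a pair chosen after the values were seen and given with no test.

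Afmid, which hydrolyses formylkynurenine, was at 69.1, 53.2 and 41.5 CPM in the EV libraries and 13.3, 7.25 and 4.56 CPM in the Sox4 libraries. The groups did not overlap (log2 change -2.70 ± 0.49, adjusted p = 0.00114), although 44.25% of its exon sequence overlaps the gene Gm20708 on the same strand, which had no count in any library. Tdo2, the enzyme of entry, fell from 2229 ± 57.5 to 849 ± 60.8 CPM (log2 change -1.39 ± 0.064, adjusted p = 2.95e-05), with the smallest SE of the 6 genes. Kmo (from 339.9 ± 22.8 to 189 ± 23.8 CPM; log2 change -0.85 ± 0.12, adjusted p = 0.000522) and Kynu (from 280.1 ± 16.96 to 168 ± 9.29 CPM; log2 change -0.74 ± 0.069, adjusted p = 0.000536) fell by less than 2-fold, and the call for Kynu was lost with library size alone (log2 fold change -0.27).

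Histidine is broken down by Hal, Uroc1, Amdhd1 and Ftcd in that order, and the levels were uneven along the route. Hal, which removes the amino group, was at 763, 805 and 710.2 CPM in EV and 214, 127 and 241 CPM in Sox4. Its groups were far apart (log2 change -1.97 ± 0.29, adjusted p = 6.99e-05). Uroc1 (from 675 ± 82.2 to 489.7 ± 57.6 CPM; log2 change -0.46 ± 0.14, adjusted p = 0.0252) and Ftcd (from 705 ± 66.6 to 457 ± 55.6 CPM; log2 change -0.63 ± 0.13, adjusted p = 0.00488) fell by less than 2-fold, and Uroc1 turned to 0.007 with library size alone. Amdhd1 was at 281 ± 18.1 CPM (EV) and 242 ± 35.8 CPM (Sox4), with overlapping groups (log2 change -0.22 ± 0.14, adjusted p = 0.214). The Hal to Amdhd1 count ratio was 2.66 to 2.72 in EV and 0.636 to 0.933 in Sox4, again for a pair chosen after the values were seen. Of the 7 serine, glutamine and histidine genes, 5 fell and 2 did not pass the test (median -0.625).

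**Figure D3:**
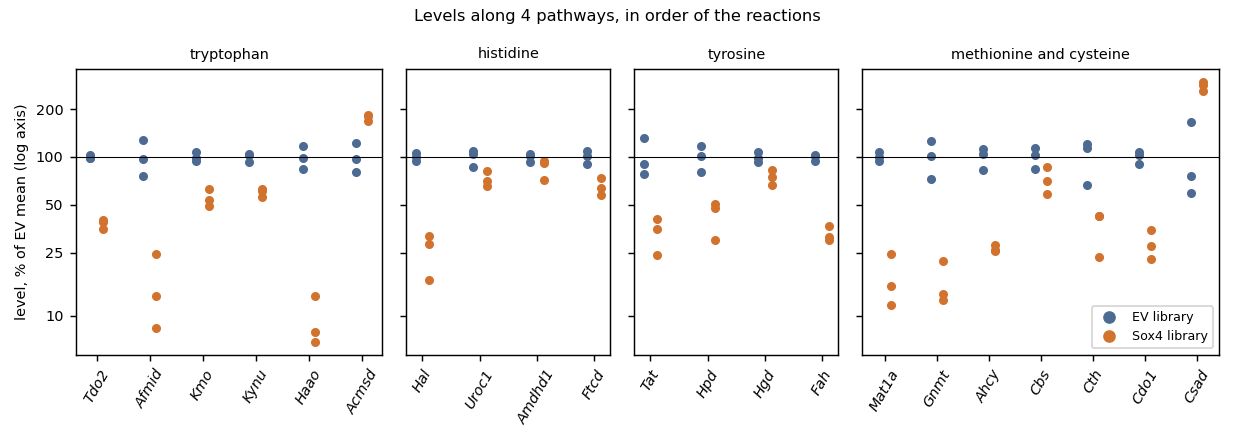
Level of each gene as a percent of its EV mean (log axis), in each EV and Sox4 library, along tryptophan, histidine, tyrosine and methionine and cysteine breakdown in the order of the reactions. Haao is at 6.85 to 13.4% of its EV mean in the Sox4 libraries and Acmsd, beside it, at 169 to 184%; Hal is at 16.8 to 31.8% and Amdhd1 at 71.3 to 94.5%.

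Hal and Amdhd1 are neighbors on mouse chromosome 10, with start sites 51.3 kb apart, and their promoter windows are shown because the fall of Hal passed the test and that of its neighbor did not. Sequences are from RefSeq on GRCm38.p6 (not the build of the counts, GRCm39), 250 bases before to 50 bases after the start, 5′ to 3′ on the gene's strand, at chr10:93488518-93488817 (plus strand) for Hal and chr10:93539984-93540283 (minus strand) for Amdhd1. Capitals mark a C/EBP motif (TTGCNNAA or its complement TTNNGCAA, at -150) and a TATA box (TATAAA on either strand, at -28) in Hal. None of the 4 motifs searched (C/EBP, TATA box, SOX core and HNF4 core) was found in the Amdhd1 window. The difference between the genes was not tested.
Hal: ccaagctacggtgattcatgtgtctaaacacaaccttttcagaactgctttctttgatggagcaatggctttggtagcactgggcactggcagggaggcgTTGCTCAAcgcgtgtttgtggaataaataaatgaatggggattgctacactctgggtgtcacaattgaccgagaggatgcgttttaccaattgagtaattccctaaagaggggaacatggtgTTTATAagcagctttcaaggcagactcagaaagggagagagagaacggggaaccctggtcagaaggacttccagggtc
Amdhd1: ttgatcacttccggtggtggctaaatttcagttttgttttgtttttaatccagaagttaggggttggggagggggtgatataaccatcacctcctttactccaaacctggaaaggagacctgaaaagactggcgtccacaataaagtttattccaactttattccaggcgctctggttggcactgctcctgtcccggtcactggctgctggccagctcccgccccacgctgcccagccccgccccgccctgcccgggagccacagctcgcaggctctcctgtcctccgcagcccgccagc

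Of the 54 genes, 45 had at least 1 promoter window in the table, and 4 motifs were looked for on both strands. A gene was counted if any of its windows held the motif. A C/EBP motif was in 6 of 45 genes (13.3%), against 12.2% of all 27025 genes and 10.4% of tested genes. A TATA box was in 7 (15.6% against 15.7% and 9.2%). It was counted anywhere in the window, from -250 (Pcbd1) to -28 (Hal), so the name describes the letters alone. A SOX core (AACAAT or AACAAAG) was in 1, Pcbd1 (2.2% against 17.7% of all genes and 11.5% of tested genes). The paper gives a shorter SOX motif, CTTTGT or ACAAAG, which was not counted and is present in the Ftcd and Pipox windows below. The windows also leave out sites far from the start, where the paper found regions that closed after Sox4 to be enriched. An HNF4 core (CAAAGTCCA or CAAAGTTCA), the motif of a hepatocyte nuclear receptor, was in 3 genes (6.7% against 1.0% and 1.1%). The 3 windows shown, 1 per gene, have HNF4 cores and TATA boxes in capitals. They lie at chr10:76575398-76575697 (Ftcd, plus), chr15:10358283-10358582 (Agxt2, plus) and chr11:77893823-77894122 (Pipox, minus), with the HNF4 core at -184, -21 and 15 from the start.
Ftcd: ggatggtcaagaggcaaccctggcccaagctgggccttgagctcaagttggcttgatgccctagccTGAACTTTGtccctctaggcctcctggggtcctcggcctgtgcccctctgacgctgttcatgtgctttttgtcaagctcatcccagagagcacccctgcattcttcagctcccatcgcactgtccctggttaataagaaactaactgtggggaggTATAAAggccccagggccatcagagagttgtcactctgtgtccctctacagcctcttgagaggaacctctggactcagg
Agxt2: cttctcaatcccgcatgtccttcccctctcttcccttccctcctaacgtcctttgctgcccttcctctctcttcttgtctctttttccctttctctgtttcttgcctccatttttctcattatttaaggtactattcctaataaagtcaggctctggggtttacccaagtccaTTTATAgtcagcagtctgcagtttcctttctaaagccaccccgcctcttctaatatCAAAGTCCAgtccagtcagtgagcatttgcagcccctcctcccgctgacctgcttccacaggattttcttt
Pipox: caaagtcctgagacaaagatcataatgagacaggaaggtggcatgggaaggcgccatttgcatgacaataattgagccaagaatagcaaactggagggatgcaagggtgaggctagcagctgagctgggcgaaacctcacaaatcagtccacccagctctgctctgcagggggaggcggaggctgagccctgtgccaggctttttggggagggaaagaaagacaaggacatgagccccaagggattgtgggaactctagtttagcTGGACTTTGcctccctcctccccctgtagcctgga
Of the 3 genes, Agxt2 and Ftcd fell and Pipox did not pass the test. Agxt2 also has a window from another start, not shown, with an HNF4 core at -67 and a C/EBP motif at 39. A match describes letters in the window and is not a measured binding site. Adhfe1, Cdo1, Cth, Gls2, Gpt, Kynu, Mat1a, Sds and Sdsl had no promoter window in the table and were not searched.

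Serine and glutamine are deaminated by Sds and by Gls2, both periportal enzymes. Gls2, the liver-type glutaminase, was at 749, 657 and 529 CPM in the EV libraries and 157, 85.9 and 138 CPM in the Sox4 libraries. Every Sox4 value was below the EV values, 5.08-fold on the mean (log2 change -2.35 ± 0.30, adjusted p = 3.81e-05).

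Sds, serine dehydratase, was at 139, 167 and 127 CPM in the EV libraries and 68.3, 34.7 and 76.9 CPM in the Sox4 libraries. The groups did not overlap (log2 change -1.27 ± 0.37, adjusted p = 0.00521), and 21.25% of its exons overlap Plbd2 on the other strand (-0.18, not past the threshold). Sdsl, a related enzyme of low level, was at 12.9, 12.5 and 7.48 CPM in the EV libraries and 18.8, 10.8 and 12.6 CPM in the Sox4 libraries, with overlapping groups (log2 change 0.37 ± 0.35, adjusted p = 0.262). The log2 ratio of Sds to Sdsl counts in each library, which does not depend on library scaling, went from 3.43, 3.74 and 4.08 in EV to 1.86, 1.68 and 2.61 in Sox4, a difference of -1.70 with no overlap (exact two-sided permutation test p = 0.1, the smallest possible).

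Methionine is activated to S-adenosylmethionine by Mat1a, and Gnmt, a methyltransferase of the liver, uses up the excess. Both fell by more than 5-fold. Mat1a was at 4226, 4539 and 3986 CPM in the EV libraries and 655, 496 and 1047 CPM in the Sox4 libraries. Gnmt was at 2314, 1864 and 1329 CPM in the EV libraries and 407, 232 and 249.7 CPM in the Sox4 libraries. The Sox4 libraries were far below the EV libraries for both genes, 5.80-fold for Mat1a (log2 change -2.54 ± 0.32, adjusted p = 4.22e-05) and 6.20-fold for Gnmt (log2 change -2.63 ± 0.35, adjusted p = 5.91e-05). Mat2a, the form made in most other tissues, was at 54.02, 62.3 and 73.7 CPM in the EV libraries and 70.4, 103 and 103 CPM in the Sox4 libraries, with groups that overlapped by 1 library (log2 change 0.54 ± 0.22, adjusted p = 0.0235). In log2, Mat1a/Mat2a was 6.29, 6.18 and 5.76 in EV and 3.22, 2.27 and 3.35 in Sox4, a difference of -3.13 (exact permutation p = 0.1). As linear count ratios this was 54.1 to 78.2 in EV and 4.81 to 10.2 in Sox4.

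The rest of the methyl cycle and its outflow fell to different degrees. Ahcy, which releases homocysteine, fell from 1489 ± 229 to 395 ± 18.7 CPM (log2 change -1.92 ± 0.14, adjusted p = 9.77e-06), though 68.7% of its sequence is shared with the copy Gm4737. Bhmt, which remethylates homocysteine with betaine, was at 5851, 3928 and 3267 CPM in EV and 1762, 989 and 1998 CPM in Sox4, and its groups did not overlap (log2 change -1.46 ± 0.40, adjusted p = 0.00295); 26.08% of its sequence is shared with Gm5096. Bhmt2, a relative that uses S-methylmethionine, was at 329, 294 and 249 CPM in the EV libraries and 201, 132 and 159 CPM in the Sox4 libraries, likewise without overlap (log2 change -0.83 ± 0.21, adjusted p = 0.00274). Their log2 ratio, Bhmt over Bhmt2, was 4.15, 3.74 and 3.71 in EV and 3.13, 2.90 and 3.65 in Sox4, a difference of -0.64 (exact permutation p = 0.1).

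Cbs and Cth pass the sulfur of homocysteine to cysteine. Cbs, the entry to this route, fell from 714 ± 102 to 511 ± 98.7 CPM with overlapping groups (log2 change -0.48 ± 0.20, adjusted p = 0.0412), and Cth fell from 699.9 ± 205 to 253 ± 77.1 CPM (log2 change -1.47 ± 0.40, adjusted p = 0.00248). Cysteine is then oxidized by Cdo1, and Csad decarboxylates the product on the way to taurine. Cdo1 fell from 1672 ± 154 to 475 ± 102 CPM (log2 change -1.82 ± 0.19, adjusted p = 3.11e-05). Csad was at 248, 88.99 and 114 CPM in EV and 444, 393 and 426 CPM in Sox4. All 3 Sox4 values lay above those of EV, but EV 1 was well above the other EV libraries, and the rise (log2 change 1.48 ± 0.45, adjusted p = 0.0104) was no longer called without Sox4 1 (log2 fold change 1.44). The mRNAs of successive enzymes of the taurine route thus moved in opposite directions. The Cdo1 to Csad count ratio was 6.92 to 20.2 in EV and 0.977 to 1.32 in Sox4 (a pair chosen after the values were seen). Of the 9 genes of methionine and cysteine metabolism, 8 fell and 1 rose (median -1.47).

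**Figure D4:**
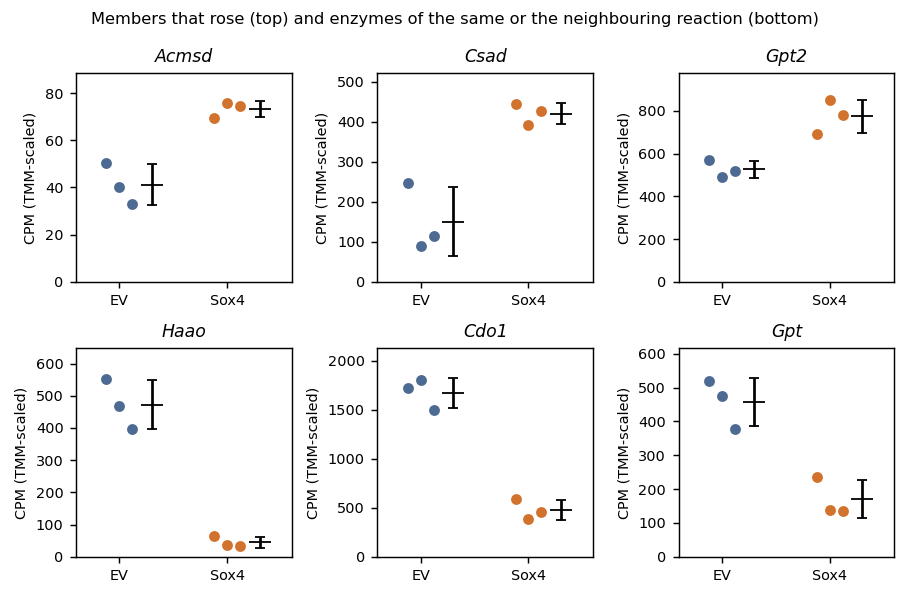
Level in CPM (TMM-scaled) in each library of Acmsd, Csad and Gpt2, the genes that rose, over Haao, Cdo1 and Gpt, enzymes of the same or the neighboring reaction; points are libraries, and bars give the mean ± SD (n = 3). The Sox4 points lie above the EV points in the top panels and below them in the bottom panels, with no overlap in any panel.

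Choline-derived methyl groups are removed in mitochondria by Dmgdh and then Sardh, which yield glycine. Sardh was at 1315, 1217 and 913 CPM in the EV libraries and 418, 260.3 and 303 CPM in the Sox4 libraries. Dmgdh was at 669, 579 and 520.2 CPM in the EV libraries and 266, 178 and 278 CPM in the Sox4 libraries. Both fell with no overlap (log2 change -1.81 ± 0.26, adjusted p = 8.2e-05 for Sardh, and log2 change -1.29 ± 0.23, adjusted p = 0.000304 for Dmgdh). Pipox, a peroxisomal enzyme that also oxidizes sarcosine, was at 286 ± 15.7 CPM (EV) and 259.5 ± 28.8 CPM (Sox4), with overlapping groups (log2 change -0.14 ± 0.10, adjusted p = 0.386). The start sites of Dmgdh and Bhmt2 lie 134 bases apart on chromosome 13 of GRCm38.p6, on opposite strands, and both genes fell.

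The glycine cleavage system splits glycine in mitochondria, and its measured parts Gldc (-0.76), Gcsh (-0.93) and Amt (-0.52) (log2 changes) all fell, each by less than 2-fold. Gcsh had the closest replicates, from 115 ± 6.09 to 60.4 ± 6.07 CPM (adjusted p = 0.000112). Gldc and Amt were no longer called with library size alone (-0.29 and -0.049). Shmt1, the cytosolic serine hydroxymethyltransferase, was at 258, 201 and 202 CPM in the EV libraries and 108, 100.2 and 72.7 CPM in the Sox4 libraries. Shmt2, its mitochondrial form, was at 327, 276 and 269 CPM in the EV libraries and 126, 110.2 and 87.2 CPM in the Sox4 libraries. Both fell without overlap (log2 change -1.24 ± 0.21, adjusted p = 0.000228 and log2 change -1.43 ± 0.18, adjusted p = 6.04e-05, respectively). Their log2 ratio was -0.34, -0.46 and -0.41 in EV and -0.23, -0.14 and -0.26 in Sox4, a difference of 0.19 (exact permutation p = 0.1), which was the smallest difference among the 8 isozyme pairs compared. Of the 7 glycine and one-carbon genes, 6 fell and 1 did not pass (median -0.93).

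Proline and hydroxyproline are oxidized by separate enzymes in mitochondria, and their products share Aldh4a1. Prodh, proline dehydrogenase, was at 268, 218 and 165 CPM in the EV libraries and 16.3, 11.2 and 20.6 CPM in the Sox4 libraries. This was the largest change of the 54 genes, a 13.5-fold lower mean with wide separation (log2 change -3.76 ± 0.32, adjusted p = 7.84e-06). Prodh2, hydroxyproline dehydrogenase, was at 255, 228 and 178 CPM in the EV libraries and 118, 83.00 and 97.04 CPM in the Sox4 libraries and also fell without overlap (log2 change -1.15 ± 0.21, adjusted p = 0.000379). The log2 ratio of Prodh to Prodh2 was 0.074, -0.067 and -0.11 in EV and -2.85, -2.88 and -2.23 in Sox4, a difference of -2.62 (exact permutation p = 0.1). Aldh4a1, which completes both routes, fell from 287 ± 45.9 to 191 ± 42.4 CPM with 1 overlapping library (log2 change -0.59 ± 0.22, adjusted p = 0.0204), and 32.5% of its exons overlap Gm21969. The Prodh to Aldh4a1 count ratio was 0.699 to 0.824 in EV and 0.0662 to 0.127 in Sox4 (chosen after the values were seen). Oat, the pericentral ornithine aminotransferase, was at 802 ± 222 CPM (EV) and 548 ± 99.5 CPM (Sox4), with overlapping groups (log2 change -0.55 ± 0.29, adjusted p = 0.0607). Of the 4 proline and ornithine genes, 3 fell and Oat did not pass (median -0.87).

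The aminotransferases exchange amino groups between amino acids and keto acids, and pairs of them do so in different compartments. Agxt, alanine-glyoxylate aminotransferase, was at 339, 446 and 332 CPM in the EV libraries and 115, 64.7 and 98.1 CPM in the Sox4 libraries. Agxt2, a mitochondrial relative, was at 219, 222 and 225 CPM in the EV libraries and 94.98, 81.98 and 93.4 CPM in the Sox4 libraries. Both fell with no overlap (log2 change -2.01 ± 0.28, adjusted p = 6.36e-05 for the first and log2 change -1.30 ± 0.068, adjusted p = 1.35e-05 for the other). Agxt2 varied little between libraries of a group. For the pair, log2 Agxt/Agxt2 was 0.63, 1.01 and 0.56 in EV and 0.27, -0.34 and 0.069 in Sox4, a difference of -0.73 (exact permutation p = 0.1).

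Got1 is the cytosolic and Got2 the mitochondrial aspartate aminotransferase. Got1 was at 447, 461 and 399 CPM in the EV libraries and 108, 101 and 172 CPM in the Sox4 libraries. Got2 was at 612, 601 and 525 CPM in the EV libraries and 404, 351 and 382 CPM in the Sox4 libraries, and 25.64% of its sequence is shared with Gm10874. Both fell without overlap, Got1 by 1.78 ± 0.25 on the log2 scale (adjusted p = 7.66e-05) and Got2 by 0.61 ± 0.091 (adjusted p = 0.00314). The log2 ratio of Got1 to Got2 was -0.45, -0.38 and -0.40 in EV and -1.91, -1.80 and -1.15 in Sox4, a difference of -1.21 (exact permutation p = 0.1).

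Gpt, the cytosolic alanine aminotransferase, and Gpt2, the mitochondrial one, moved in opposite directions. Gpt was at 519.7, 475 and 379 CPM in the EV libraries and 234, 139 and 136 CPM in the Sox4 libraries, and it fell (log2 change -1.43 ± 0.29, adjusted p = 0.000633). Gpt2 was at 569, 489 and 519 CPM in the EV libraries and 693, 849.9 and 779 CPM in the Sox4 libraries, and it rose (log2 change 0.56 ± 0.11, adjusted p = 0.00699), a call lost without EV 2 (log2 fold change 0.49). Neither gene's groups overlapped. Of the 6 aminotransferase genes, 5 fell and Gpt2 rose (median -1.365). Counted against each other, Gpt over Gpt2 was (log2) -0.13, -0.041 and -0.45 in EV and -1.56, -2.61 and -2.52 in Sox4, a difference of -2.02 (exact permutation p = 0.1). Of the 9 pairs listed, Bcat2 and Bcat1 were not compared, because Bcat1 had no count in any library. None of the 8 ratios compared overlapped between groups, and p was 0.1 for each, also after Benjamini-Hochberg adjustment over the 8. The share without overlap among ratios of other gene pairs was not determined. Among single genes, 63.0% of all tested did not overlap. The cytosolic to mitochondrial ratio was lower in every Sox4 library than in any EV library for Got and Gpt, and higher for Shmt.

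**Figure D5:**
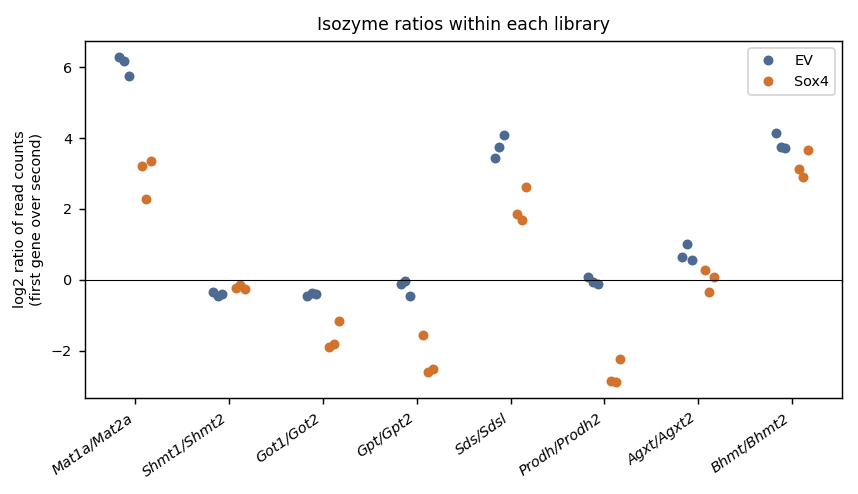
Log2 ratio of read counts of the first gene over the second gene of 8 isozyme pairs in each library (0.5 added to each count); points are libraries, 3 EV and 3 Sox4 per pair. The EV and Sox4 points do not overlap for any pair, and the difference of means ranges from -3.13 (Mat1a/Mat2a) to 0.19 (Shmt1/Shmt2), the only pair in which the Sox4 points are higher.

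Branched-chain amino acids, lysine and hydroxybutyrate are degraded in mitochondria by the remaining 9 genes, and all 9 fell (median -1.55). Aass, which starts lysine breakdown, was at 403, 414 and 395 CPM in the EV libraries and 106, 91.4 and 116 CPM in the Sox4 libraries. Hibadh, an enzyme of valine breakdown, was at 382, 385 and 389 CPM in the EV libraries and 117, 108 and 102 CPM in the Sox4 libraries. The 3 values of each group were close together and the groups were far apart for both (log2 change -1.95 ± 0.10, adjusted p = 3.29e-06 for Aass, and log2 change -1.82 ± 0.060, adjusted p = 2.75e-06 for Hibadh). Aldh6a1, which follows Hibadh in valine breakdown, fell from 516 ± 11.7 to 154 ± 24.9 CPM (log2 change -1.75 ± 0.13, adjusted p = 1.02e-05). Hibch, the enzyme before Hibadh, fell from 81.7 ± 5.36 to 50.5 ± 4.06 CPM (log2 change -0.69 ± 0.087, adjusted p = 0.000546), with the call lost at library size alone (-0.22).

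Bcat2 removes the amino group of leucine, isoleucine and valine, and the branched-chain ketoacid dehydrogenase, of which Bckdha and Bckdhb are the paired E1 subunits, takes the irreversible step. Both subunits fell (-1.01, SE 0.24, and -1.20, SE 0.10), although 61.66% of the exons of Bckdha overlap B3gnt8 on the other strand, itself at 1.90 ± 0.251 CPM (EV) and 0.845 ± 0.199 CPM (Sox4). Bcat2 was at a low level, 26.2 ± 3.64 CPM (EV) and 7.86 ± 1.29 CPM (Sox4) (-1.74), and is uncertain, since 15.95% of its exons overlap 0610005C13Rik on the other strand, which was at 125 ± 9.61 CPM (EV) and 34.1 ± 7.31 CPM (Sox4) and fell as well (-1.88). Ivd of leucine breakdown fell from 274 ± 24.3 to 117 ± 28.7 CPM (log2 change -1.24 ± 0.21, adjusted p = 0.000276), and Adhfe1, which oxidizes hydroxybutyrate, fell from 164 ± 21.5 to 55.7 ± 9.62 CPM (log2 change -1.55 ± 0.19, adjusted p = 3.11e-05). In all, 10 of the 54 genes shared more than 10% of their sequence or exons with another gene, and the strand setting of the counting was not given. Without these 10, 37 of 44 genes were lower and 3 higher, with a median of -1.23.

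Some calls of genes with small changes were lost when 1 library was left out, and a test on fewer libraries has less power. Hgd was not called without EV 1 (-0.37), EV 2 (-0.44) or Sox4 2 (-0.34), nor with no expression filter (-0.38). Uroc1 and Cbs each lost the call without EV 1, EV 2, Sox4 2 or Sox4 3, with log2 fold changes of -0.45, -0.41, -0.44 and -0.39 for Uroc1 and -0.41, -0.48, -0.35 and -0.47 for Cbs. Leaving out any of the same 4 libraries took the call from Aldh4a1 (-0.50, -0.57, -0.51 and -0.48). Amt lost it without EV 1, Sox4 2 or Sox4 3 (-0.42, -0.39 and -0.47). Oat was called as lower without EV 3 (-0.77) or Sox4 1 (-0.67), with no expression filter (-0.51) and by DESeq2 (-0.55). With library size alone Ftcd (-0.16), Bhmt2 (-0.36), Cbs (-0.014), Aldh4a1 (-0.12) and Got2 (-0.14) were not called either, Sdsl (0.84) and Pipox (0.33), the latter with its direction turned, were called as higher, and Amdhd1 turned to 0.25 without a call.

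Other enzymes of the same pathways, 49 genes of which 47 were tested, comprised 41 that were lower, 1 that was higher and 5 that did not pass the test (median log2 fold change -1.05; all genes tested 26.0% lower and 29.0% higher). With library size alone 28 were lower and 2 higher, against 12.8% and 51.0% of all genes tested. The largest falls were those of Kyat1, a kynurenine aminotransferase (from 229.8 ± 33.9 to 28.2 ± 9.95 CPM; log2 change -3.02 ± 0.34, adjusted p = 2.42e-05), Ido2, another tryptophan dioxygenase (from 136 ± 16.9 to 16.8 ± 3.60 CPM; log2 change -3.02 ± 0.20, adjusted p = 1.23e-06), and Ppm1k, the phosphatase that activates the branched-chain ketoacid dehydrogenase (from 85.7 ± 2.88 to 10.8 ± 1.31 CPM; log2 change -2.99 ± 0.11, adjusted p = 2.61e-07). The gene that rose was Glud1, glutamate dehydrogenase, which releases ammonia from glutamate in mitochondria. It was at 1610.0, 1513 and 1556 CPM in the EV libraries and 2443, 2302 and 2659 CPM in the Sox4 libraries, with no overlap (log2 change 0.66 ± 0.066, adjusted p = 0.00282).

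Of 14 genes of amino acid synthesis and widely expressed isozymes, 12 were tested, 6 rose, 4 fell and 2 did not pass (Psat1 and Psph), beside 29.0% higher and 26.0% lower among all genes tested. The share that fell was near that of all genes. Phgdh, the first enzyme of serine synthesis, had at most 2 counts in each EV library and was at 2.06, 1.58 and 1.72 CPM in Sox4, at least 7.92-fold higher against the mean floor of 3 counts per EV library, although 47.78% of its sequence is shared with Gm7901. Aldh18a1, which starts proline synthesis from glutamate, was at 1.08, 0.683 and 0.654 CPM in the EV libraries and 8.42, 8.12 and 6.64 CPM in the Sox4 libraries (log2 change 3.25 ± 0.23, adjusted p = 1.5e-05). Besides Mat2a, Mat2b, the regulatory subunit of the Mat2a enzyme (0.70), and Ahcyl1, a relative of Ahcy (0.39), rose. The genes that fell were Glul, the pericentral glutamine synthetase (from 398 ± 47.6 to 65.1 ± 17.9 CPM; log2 change -2.61 ± 0.26, adjusted p = 9.37e-06), Asns, asparagine synthetase (-1.65), Ahcyl2 (-1.02) and Shmt2. Of the 3 enzymes of serine synthesis, Phgdh passed the test as higher, while Psat1 (0.93, adjusted p = 0.207) and Psph (-0.44, adjusted p = 0.148) did not pass.

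Genes of both zones of the liver lobule were among those that fell. Of 10 periportal genes, which include Sds, Hal, Gls2 and Uroc1 of the 54, 8 were lower and none higher (median -1.38), beside 26.0% lower and 29.0% higher among all genes tested and 52.0% lower among those at 100 CPM or more. Of 10 pericentral genes, which include Oat of the 54 and Glul, 6 were lower and 1 higher (median -1.05), a share near that of the genes at 100 CPM or more. The difference between the zones was not tested.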

How the data were processed

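Hepatocyte RNA from 3 EV and 3 Sox4 mice was sequenced. The authors aligned reads to GRCm39 with STAR (2.7.10b in the submitters' processing notes) and deposited raw counts per gene from featureCounts 2.0.1. The annotation release, strand setting and treatment of multimapping reads are not given in the sources used here. They also deposited a normalized signal, the counts divided by a DESeq2 median-of-ratios size factor per library, used here as an alternative. Counts were tested in R 4.3.3 with edgeR 4.0.16 (filterByExpr, minimum count 10 and minimum total 15; TMM; quasi-likelihood F test with robust dispersion, no covariate), with Benjamini-Hochberg adjustment over the 12691 tested genes and an adjusted p under 0.05 as the threshold. The procedure was tested on simulated data in which few genes changed, as many up as down. The simulation held no difference in TMM factors between the groups, so it does not bear on the scaling used here. Levels are CPM on TMM-corrected library sizes; the SE belongs to the difference of the 2 group means on the log2 CPM scale (prior count 2). Floors cover counting error only. Within groups, libraries varied beyond sampling noise (chi-square per degree of freedom of 18.0 to 71.3), so each was 1 replicate. Isozyme ratios used counts plus 0.5.

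The 54 genes, the pathway lists and the markers were chosen with earlier results of these data known. Values in every library are given for the 2 largest changes per pathway, for the genes that rose, and for both genes of isozyme pairs whose ratios did not overlap; of the other enzymes, up to 3 changes in each direction are named, and any synthesis gene or isozyme past the threshold. Some genes of the lists are counted in totals but are not reported here, and 1 isozyme pair is left out for the same reason. Exon length, overlap and shared sequence (50-base words) came from a GRCm38 annotation. Alternatives used limma 3.58.1 and DESeq2 1.42.0.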

Additional observations from a re-analysis of the deposited data

How the results depend on the processing

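With library size alone, 36 of the 54 genes were lower and 5 higher, the median log2 fold change was -0.782, and of the other enzymes 28 were lower instead of 41 and 2 higher instead of 1. For 4 genes the direction turned on that scale, to 0.053 (Hgd), 0.007 (Uroc1), 0.25 (Amdhd1) and 0.332 (Pipox); the median of all genes tested moved by a like amount, from 0.041 to 0.51. Under the DESeq2 size factors, no filter, a mean count of at least 50, limma-voom, limma-trend on the deposited normalized values and the replicate block, 47 were lower and 3 higher, though not always the same genes; with no filter Hgd lost the call (-0.376) and Oat gained it (-0.507). The DESeq2 test gave 48 and 3, with Oat added (-0.554). Same-numbered libraries correlated at 0.27, -0.09 and 0.13 in their deviations from the group means, and 3 of 6 libraries correlated best with their own number, so the numbers were not taken as pairs. With the replicate block the median was -1.281; the block took the call from Sds (-1.327) and gave one to Oat (-0.525). Leaving out 1 library at a time gave 42 to 48 lower, 2 or 3 higher and medians of -1.371 to -1.145, and 4 to 6 of the synthesis genes and isozymes higher (6 with all libraries). The genes of small change lost their call most often when a library was left out: Hgd, Uroc1, Cbs, Amt and Aldh4a1, each in 3 or 4 of 6 cases. Oat was called without EV 3 (-0.771) and without Sox4 1 (-0.669). Over 756 single-gene values from all alternatives, 715 did not change in call or sign, and 4 reversed in sign, whatever their call. Of the others, 31 were no longer called and 6 became called. No isozyme ratio reversed. With 3 libraries per group the exact tests could not go below 0.1.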
